A study of Mus musculus with 6 samples.

Results

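Dlx1, Dlx2, Dlx5 and Dlx6 are the 4 of 27998 measured genes followed here, chosen by name from the distal-less family of homeobox genes. They lie in 2 tail-to-tail pairs, and a further such pair, Dlx3 and Dlx4, is not among them. They were followed across the authors' cell types, across 3 genotype groups, and together with Pou4f2 in single neurogenic and ganglion cells. All 4 were found in the files, but Dlx5 was read only 9 times and Dlx6 only 4 times, so the results concern Dlx1 (5276 molecules in 3893 cells) and Dlx2 (5019 molecules in 3659 cells). A molecule is counted as a unique molecular identifier, or UMI.

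The cells came from retinas of mouse embryos at embryonic day 14, captured in droplets with the 10x Genomics 3' v2 chemistry. Atoh7 is a bHLH factor that retinal progenitors need to make ganglion cells, and Bax is a mitochondrial protein that carries out apoptosis. There were 3 genotypes with 2 libraries each, namely Bax het Atoh7 null (1 copy of Bax, no Atoh7), Bax null (no Bax, Atoh7 intact) and Bax null Atoh7 null (neither gene). All groups thus carried a Bax mutation, none had both genes intact, and each contrast with Bax null compares Atoh7 null libraries with libraries that have Atoh7. Only Bax null Atoh7 null against Bax null keeps the label for Bax the same. Bax het Atoh7 null differs from Bax null in both genes, so their parts cannot be told apart there. The labels do not say whether the libraries came from separate embryos, so p-values measure the spread between libraries, which may be technical. The labels do not name the Bax allele or the number of retinas per library.

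DLX proteins are homeodomain transcription factors. Paralogous genes of a pair are usually transcribed together and share enhancers that lie between them. In the forebrain, Dlx1 and Dlx2 promote the production of GABA-releasing interneurons, and Dlx5 and Dlx6 act after them. In the retina, Dlx1 and Dlx2 are known from newborn neurons of the inner layers, and are needed for part of the ganglion cells. Pou4f2, also called Brn3b, encodes a POU homeodomain factor of ganglion cell differentiation that Atoh7 acts upstream of.

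In the GENCODE annotation of GRCm38, Dlx1 (ENSMUSG00000041911) lies on the forward strand of chromosome 2 from 71528113 to 71533981. Dlx2 (ENSMUSG00000023391) lies on the reverse strand of the same chromosome from 71543408 to 71546754, with 9426 bases between the genes. Dlx6 (ENSMUSG00000029754, forward strand, chromosome 6, 6863334 to 6868568) and Dlx5 (ENSMUSG00000029755, reverse strand, chromosome 6, 6877805 to 6882085) form the other pair, with 9236 bases between them. The antisense gene Dlx1as (chromosome 2, 71516454 to 71537891, reverse strand) overlaps all of Dlx1. Whether the counting used strand is not given in the sources used here, so Dlx1 and Dlx1as UMIs may not be strictly separate; 65 UMIs were assigned to Dlx1as.

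The promoters of the detected pair are shown because Dlx1 and Dlx2 were read largely in the same cell types. Their windows differ in E-box letters (CANNTG), a general motif of basic helix-loop-helix factors. Which of these factors could bind them was not examined. Each window runs from 250 bases before to 50 bases after the RefSeq transcript start, is read 5′ to 3′ on the gene's own strand, and comes from RefSeq on GRCm38.p6. Capitals mark E-box letters, CANNTG, which read the same on both strands.
Dlx1, chr2:71529195-71529494, forward strand: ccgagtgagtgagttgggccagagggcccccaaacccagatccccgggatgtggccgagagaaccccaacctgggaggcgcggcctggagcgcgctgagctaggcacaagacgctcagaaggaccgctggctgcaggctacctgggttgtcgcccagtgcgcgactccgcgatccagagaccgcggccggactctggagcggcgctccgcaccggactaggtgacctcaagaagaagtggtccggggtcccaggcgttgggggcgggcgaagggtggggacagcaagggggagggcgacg
Dlx2, chr2:71546705-71547004, reverse strand: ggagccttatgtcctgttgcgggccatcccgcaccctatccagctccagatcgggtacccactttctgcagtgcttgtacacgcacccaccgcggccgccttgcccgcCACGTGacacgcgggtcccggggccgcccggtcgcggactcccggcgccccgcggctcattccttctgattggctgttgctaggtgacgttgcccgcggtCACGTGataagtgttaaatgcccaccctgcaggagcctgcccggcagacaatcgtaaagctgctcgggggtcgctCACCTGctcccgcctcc

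The Dlx2 window held 3 E-box matches and the Dlx1 window held none. The windows are placed unlike. The Dlx1 window lies inside its GENCODE gene, which begins at 71528113, and the Dlx2 window spans the 5′ end of its gene at 71546754. The GENCODE start of Dlx1 was not searched. Of the Dlx2 matches, 2 were the palindrome CACGTG, at 142 and 42 bases before the start, and the other began at base 34 after it. Among 32851 RefSeq promoter windows of the same length, 72.3% held at least 1 CANNTG, 7.15% held a CACGTG and 0.594% held 2 or more of these. The core homeodomain letters TAAT, searched on both strands, were in neither Dlx window and in 58.0% of all windows. The GC content was 69.3% for Dlx1 and 66.3% for Dlx2. These matches describe the letters of the windows, and no binding was measured.

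Of 93128 cells in the authors' table, 67050 belonged to the 6 libraries, which held 22463515 to 66594431 UMIs each. Median depth was 5660.5 and 6804 UMIs per cell in the Bax null libraries and 1634 to 2632 in the other 4, so depth moves with genotype. Atoh7 was read 376 and 458 times in the Bax null libraries and not at all in the 4 Atoh7 null libraries. Bax stood at 144 and 108 CPM (the standard depth-scaled unit, a gene's UMIs over all UMIs of the library or cell type) in Bax het Atoh7 null, at 17.1 and 14.99 in Bax null, and at 47.7 and 10.996 in the libraries labelled Bax null Atoh7 null replicates 1 and 2, so the first of these was above the other Bax null libraries. Those same libraries shared 2596 cell barcodes, with the same cell type in 89.4% of them, against 126 to 223 shared barcodes in other pairs of libraries. Results that rest on these libraries are therefore also given without the shared cells or without replicate 1 where that changes the call. In replicate 1 the shared cells held 16.9 CPM of Bax and its other cells 51.5. Leaving out the shared cells therefore does not remove the higher Bax of that library. The type labels matched their markers, with 10 of 10 ganglion, 6 of 6 cone and 7 of 7 progenitor markers highest in the type of that name and 6 of 9 neurogenic ones. Cells labelled horizontal held the highest levels of all 5 horizontal and all 5 amacrine markers and are called horizontal-labelled. Forebrain interneuron markers (Lhx6, Lhx8 and Nkx2-1) summed to at most 2.197 CPM in any type and library.

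Dlx1 and Dlx2 were read mainly in neurogenic, ganglion and horizontal-labelled cells and were rare in progenitors and cones. Levels are in CPM, here per UMIs of the type in a library. The types came from clustering of the same cells, so their levels are a description with no test.

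Dlx1 in ganglion cells stood at 86.0 and 73.4 CPM in the Bax null libraries, at 55.3 and 62.8 in Bax null Atoh7 null, and at 57.5 and 52.9 in Bax het Atoh7 null. Its neurogenic level stood at 54.7 and 37.7 in Bax null, at 44.5 and 58.2 in Bax null Atoh7 null, and at 49.3 and 55.7 in Bax het Atoh7 null. In horizontal-labelled cells it stood at 98.3 and 68.4, at 63.6 and 65.3, and at 46.5 and 63.9 in the same order of groups. On this scale the Bax null libraries were the highest in ganglion and horizontal-labelled cells without overlap, and straddled the others in neurogenic cells. Of genes with a mean of at least 10 CPM in the type, 11.2% in ganglion and 7.99% in horizontal-labelled cells had both Bax null libraries highest in this way. In progenitors Dlx1 stood at 1.11 and 1.03 in Bax null and at 1.78 to 2.24 in the other 4 libraries, and in cones it ranged from 3.86 to 10.1. Over the 6 libraries the order was horizontal-labelled cells (67.6 ± 16.9 CPM, SD, n = 6), ganglion cells (64.7 ± 12.7), neurogenic cells (50.03 ± 7.78), cones (5.74 ± 2.41) and progenitors (1.74 ± 0.546). The ranges of the first 3 types overlapped. Within a library, horizontal-labelled cells were above ganglion cells in 4 of 6 and above neurogenic cells in 5 of 6, and ganglion cells were above neurogenic cells in 5 of 6. Each of the 3 was above cones, and cones above progenitors, in 6 of 6.

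Dlx2 in ganglion cells stood at 66.0 and 50.9 CPM in Bax null, at 30.3 and 42.6 in Bax null Atoh7 null, and at 47.0 and 41.9 in Bax het Atoh7 null. Its neurogenic level stood at 74.5 and 54.7, at 44.2 and 71.1, and at 50.5 and 59.1 in the same order. In horizontal-labelled cells the values were 57.8 and 25.5, then 26.8 and 25.4, then 17.2 and 18.5. The Bax null libraries were the highest in ganglion cells without overlap, and overlapped other groups in neurogenic and horizontal-labelled cells. In progenitors Dlx2 stood at 1.71 and 1.28 in Bax null and at 2.14 to 3.65 in the others, and in cones at 0.876 to 10.8. Over the 6 libraries Dlx2 was highest in neurogenic cells (59.0 ± 11.8 CPM), then ganglion cells (46.4 ± 11.8), horizontal-labelled cells (28.5 ± 14.9), cones (5.49 ± 3.65) and progenitors (2.46 ± 0.898), with ranges that overlap between each pair of neighbours except horizontal-labelled cells and cones. Within a library the order from neurogenic to ganglion to horizontal-labelled cells to cones held in 6 of 6, and cones were above progenitors in 4 of 6.

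**Figure D1:**
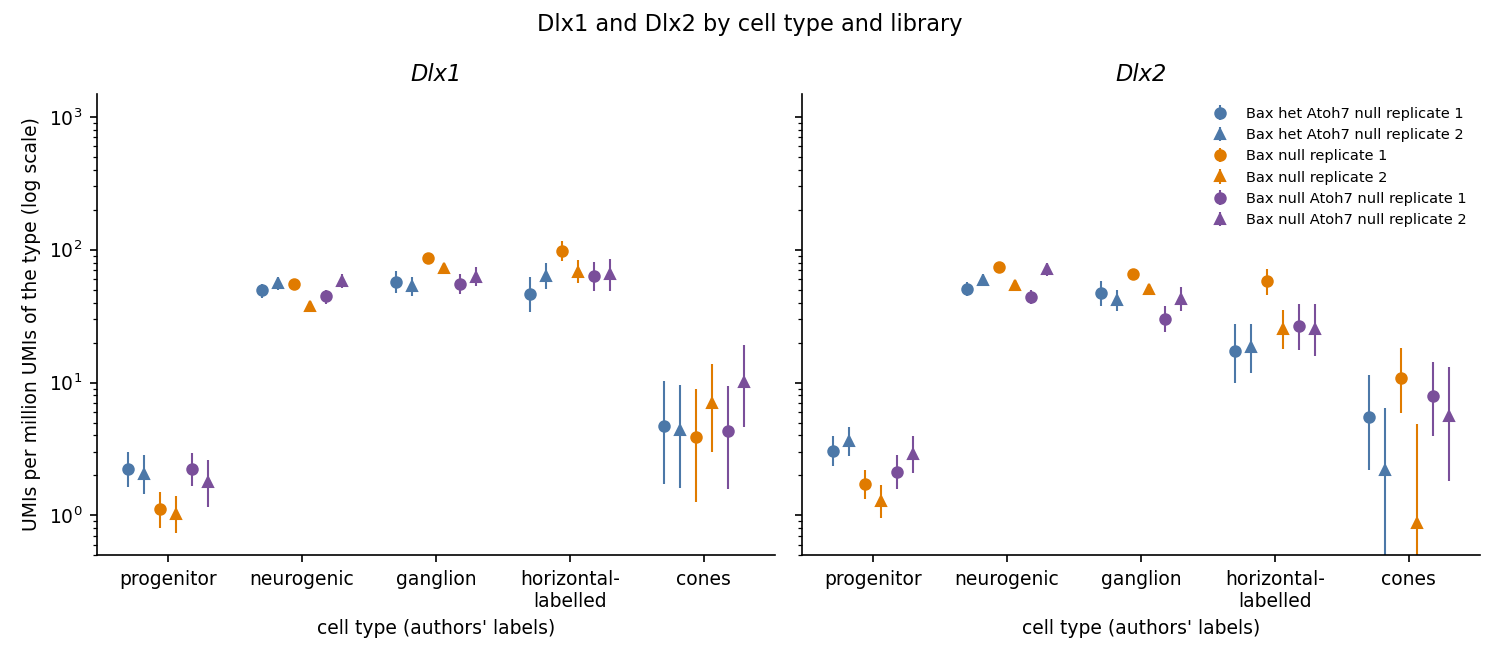
Dlx1 (left) and Dlx2 (right) in CPM of the type, on a log axis, for each of 6 libraries in the authors' 5 cell types. Points are libraries, circles replicate 1 and triangles replicate 2, and bars are exact Poisson 95% intervals, which cover counting error only. Neurogenic, ganglion and horizontal-labelled cells lie well above progenitors, and the Bax null libraries are highest in ganglion cells and lowest in progenitors for both genes.

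The balance between the paired genes shifted from type to type. The ratio of Dlx1 to Dlx2 UMIs had a median over the 6 libraries of 0.692 in progenitors (range 0.563 to 1.04), 0.881 in neurogenic cells (0.690 to 1.01), 1.37 in ganglion cells (1.22 to 1.83) and 2.63 in horizontal-labelled cells (1.70 to 3.46). The ranges of neurogenic and ganglion cells did not overlap, so Dlx2 was relatively more frequent in neurogenic cells in every library. These are 3' molecule counts of genes that may be captured with unequal efficiency, so the ratio is read across types and not as a ratio of transcripts.

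The detected molecules were spread differently over the types by genotype. Ganglion cells held 52.8% and 54.0% of all Dlx1 UMIs in the Bax null libraries and 23.4% to 29.3% in the other 4, and 40.7% and 39.2% of Dlx2 UMIs against 17.7% to 21.2%. Neurogenic cells held 36.4% and 35.9% of Dlx1 UMIs in Bax null and 50.9% to 56.2% elsewhere, and 49.8% and 54.5% of Dlx2 UMIs against 60.8% to 65.7%. These shares follow both the number of cells of a type and the level within it. Bax null libraries had 1772 and 1571 ganglion cells, and the others had 667 to 1153.

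Dlx5 and Dlx6, the pair on chromosome 6, were close to undetected. Dlx5 had 1 and 2 UMIs in the Bax null libraries, 3 and 0 in Bax null Atoh7 null, and 2 and 1 in Bax het Atoh7 null. Dlx6 had 1 and 2 UMIs in Bax null, then 1 and 0 in Bax null Atoh7 null, and 0 in both Bax het Atoh7 null libraries. No ganglion cell held a Dlx5 UMI. Both genes failed the filter on low counts in every class and were not tested. Their noncoding neighbour Dlx6os1 had 0 UMIs, and Dlx4 had 4.

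Dlx3, a family member known from epidermis and placenta, was the only other coding Dlx gene with more than a few UMIs (290). It was highest in horizontal-labelled cells (10.05 ± 3.82 CPM, SD, n = 6) and neurogenic cells (4.403 ± 1.84), with 7 UMIs in all ganglion cells together. In neurogenic cells its level was 2.73 and 1.99 CPM in Bax null, then 5.46 and 7.02 in Bax null Atoh7 null, and 4.30 and 4.92 in Bax het Atoh7 null. The Bax null libraries were lowest there, the reverse of Dlx2 under the fit described below. Dlx3 rose by 0.81 on the log2 scale in Bax null Atoh7 null against Bax null (adjusted p = 0.0284), but it rose more in progenitors of the same libraries (by 2.21, adjusted p = 0.00664, 14 and 7 UMIs against 4 and 2), so that the difference between the types was -1.38 and not called.

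Within the ganglion type Dlx1 and Dlx2 peaked in a few of the authors' clusters, and within the neurogenic type they were spread more broadly. Cluster levels pool the 6 libraries, so the deeper Bax null libraries weigh more, and clusters of at least 100 cells are described. Among 19 ganglion clusters, Dlx1 ranged from 9.02 to 249 CPM (median 46.1) and Dlx2 from 4.96 to 229 (median 28.2).

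Clusters 44, 92 and 19 led for Dlx1. Cluster 44 (370 cells) stood at 249 CPM for Dlx1 and 229 for Dlx2 with little of the growth cone gene Gap43 (50.2) and of the synuclein gene Sncg (7.59), a marker of more mature ganglion cells. Cluster 92 (310 cells) stood at 206 for Dlx1 and 179 for Dlx2, and cluster 19 (411 cells) at 153 and 88.6. Isl1, a LIM homeodomain gene of ganglion cells, stood at 252, 601 and 898 CPM in clusters 44, 92 and 19, and Pou4f2 at 37.4, 102 and 126, the reverse of the order of Dlx1. The highest Pou4f2 level (169 CPM, cluster 67) went with 65.9 CPM of Dlx1. The 8 clusters with at least 934 CPM of Sncg had 9.02 to 34.2 CPM of Dlx1.

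Across the 19 ganglion clusters the Spearman correlation of Dlx1 was 0.97 with Dlx2, 0.97 with Sp8 (a zinc finger factor), 0.87 with Gadd45a, 0.30 with Pou4f2, -0.85 with Sncg and -0.92 with Gap43. Clusters share libraries, depth and the clustering of the same genes, so these values are a description. Dlx1 thus tracked Dlx2 and Sp8 and ran opposite to the axon and maturity genes, with little relation to Pou4f2.

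Among 27 neurogenic clusters Dlx1 ranged from 5.10 to 108 CPM (median 41.8) and Dlx2 from 6.56 to 148 (median 55.6), with 10 clusters at 50 CPM or more of Dlx1 and 14 of Dlx2. Cluster 4 (844 cells) led for Dlx1 at 108 CPM with 103 of Dlx2, 16.7 of Pou4f2 and 94.4 of Isl1. Cluster 73 (374 cells) led for Dlx2 at 148 CPM with 107 of Dlx1. Cluster 87, with the most Otx2 (903 CPM), a factor of photoreceptor fate, held 16.5 CPM of Dlx1 and 15.7 of Dlx2. Across these clusters the Spearman correlation of Dlx1 was 0.91 with Dlx2, 0.80 with Sp8, 0.78 with Isl1, 0.68 with Pou4f2 and -0.02 with Otx2. The relation had exceptions, since cluster 16 (831 cells) held 101 CPM of Dlx1 with 2.04 of Pou4f2 and 11.4 of Isl1.

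In the 6 horizontal-labelled clusters Dlx1 was lowest where the horizontal markers Lhx1 and Onecut1 were highest. Cluster 2 (865 cells) had 119 CPM of Dlx1, 498 of Ptf1a, a fate gene of amacrine and horizontal cells, and 5.33 of Lhx1. Cluster 76 (419 cells) had 4.28 CPM of Dlx1 with 149 CPM of Lhx1, 119 of Onecut1 and 309 of Ptf1a, so Ptf1a did not separate the clusters in the same way. In cluster 141 Dlx1 was at 83.1 CPM and Dlx2 at 9.23, the widest gap between the pair in this type. Progenitor clusters, 81 in number, reached at most 6.07 CPM of Dlx1.

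**Figure D2:**
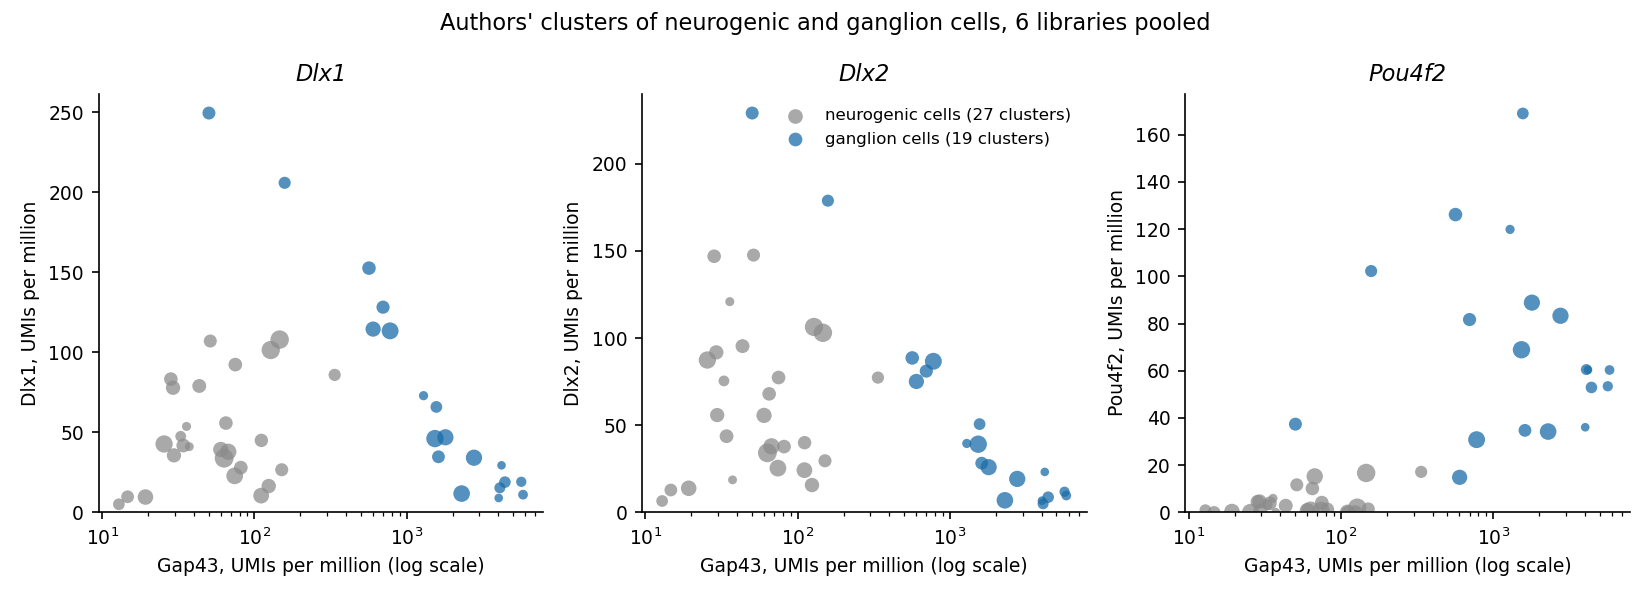
Dlx1, Dlx2 and Pou4f2 (CPM, linear axis) against Gap43 (CPM, log axis) in the authors' neurogenic clusters (grey, 27) and ganglion clusters (blue, 19) of at least 100 cells, with point area rising with the number of cells. In ganglion clusters Dlx1 and Dlx2 fall from 249 and 229 as Gap43 rises, while Pou4f2 reaches its highest value of 169 at intermediate Gap43.

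The 3 clusters with the most Dlx1 were mostly cells of the Bax null libraries. They were picked after their values were seen. They held 29.1% and 29.1% of the ganglion cells in Bax null, then 3.56% and 3.16% in Bax null Atoh7 null, and 2.25% and 2.46% in Bax het Atoh7 null. In the Bax null libraries these cells carried 61.5% and 57.4% of the ganglion Dlx1 UMIs and 64.8% and 66.5% of the Dlx2 UMIs. Because the pooled level that ranks them is weighted towards the deeper Bax null libraries, these shares are a description. In the other ganglion clusters, unscaled Dlx1 stood at 43.4 and 41.0 CPM in Bax null. There it stood at 49.6 and 60.4 in Bax null Atoh7 null and at 57.8 and 50.3 in Bax het Atoh7 null. Dlx2 in these clusters stood at 30.4 and 22.4 in Bax null and at 29.5 to 46.0 in the Atoh7 null libraries. Outside the 3 clusters the Bax null libraries were thus the lowest for Dlx1 and overlapped the others for Dlx2. This was not tested.

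Inside single clusters the levels were compared as well. In 7 ganglion clusters with at least 10 cells in every library, the mean unscaled level was higher in Bax null than over the 4 Atoh7 null libraries in 7 of 7 for Dlx1 and 7 of 7 for Dlx2. Of 7823 genes with at least 10 CPM in the type, 5.18% were higher in Bax null in 7 of 7. The libraries did not overlap in 3 of these for Dlx1 and in 1 for Dlx2, and 6.24% and 24.5% of the genes reached at least these numbers. In cluster 44 the Dlx1 means were 257 and 159 CPM, and in cluster 63 they were 84.5 and 28.5. The Atoh7 null libraries had 10 to 25 cells and 2 to 6 Dlx1 UMIs each in cluster 44 (71.0 to 234 CPM). That cluster was also singled out by a pooled level weighted towards Bax null. The difference in cluster 90 was small (115.9 against 114.8). In neurogenic clusters of this kind Bax null was higher in 12 of 20 for each gene, a number that 13% of 7693 genes reached.

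Between genotype groups, Dlx1 and Dlx2 summed over all ganglion cells were lower in both Atoh7 null groups than in Bax null. UMIs were summed per library and type and tested with edgeR, which by default scales libraries with trimmed M values (TMM), so that the typical gene shows no change. The scaling matters here. With libraries scaled by total UMIs instead, the median of all genes in ganglion cells shifts by 0.63 (log2) in Bax null Atoh7 null minus Bax null and by 0.50 in Bax het Atoh7 null minus Bax null, and the calls move from 26.2% higher and 26.5% lower to 6440 higher and 981 lower of 10586 genes. For the second contrast they move from 25% in each direction to 5584 higher and 998 lower. Fold changes below are relative to the typical gene unless total-count scaling is named. Both contrasts share the Bax null libraries, so they are not independent.

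In ganglion cells Dlx1 fell by 1.04 (log2, SE 0.11, adjusted p = 9.19e-06) in Bax null Atoh7 null against Bax null, and Dlx2 fell by 1.30 (SE 0.16, adjusted p = 2.71e-05). Against a background of 26.5% of 10586 genes called lower, both testable members were lower, which is a share read from 2 genes. In Bax het Atoh7 null set against Bax null, Dlx1 fell by 1.02 (SE 0.12, adjusted p = 1.49e-05) and Dlx2 by 0.89 (SE 0.16, adjusted p = 4.72e-04), where 25% of genes were called lower. With total-count scaling the Dlx1 values were -0.43 (adjusted p = 0.00703) and -0.54 (adjusted p = 0.00241), and those of Dlx2 were -0.69 (adjusted p = 0.00322) and -0.40 (adjusted p = 0.0510), so only the last lost its call. On that scale 9.27% and 9.43% of genes were called lower. Without the library that is labelled Bax null Atoh7 null replicate 1, the first contrast gave -0.98 for Dlx1 and -1.09 for Dlx2, both called.

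The cells labelled ganglion also differed between groups in markers of other cells. The 5 amacrine markers summed to 12.98 and 12.4 CPM in Bax null and to 101 to 134 in the other 4 libraries, and the 5 horizontal markers to 521 and 515 against 1161 to 1406. The 9 neurogenic markers summed to 1057 and 1020 against 1807 to 2202, and the 7 progenitor markers to 481 and 317 against 1043 to 1355. The 9 markers from outside the neural retina, which include haemoglobin genes, were higher in Bax null (310 and 274) than elsewhere (10.5 to 142). The 10 ganglion markers summed to 11899 and 12436 in Bax null and 7540 to 9670 elsewhere. The part of these differences in the Dlx result was not tested.

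In neurogenic cells Dlx2 fell by 0.77 (SE 0.18, adjusted p = 0.00452) and by 0.74 (SE 0.18, adjusted p = 0.00569) in the same contrasts, with 23.8% of 11670 genes called lower in each. Dlx1 fell by 0.44 (SE 0.16, adjusted p = 0.0431) in Bax null Atoh7 null against Bax null, and was at -0.32 (SE 0.16, adjusted p = 0.129) in Bax het Atoh7 null set against Bax null. With total-count scaling no call was left here, at 0.15 and 0.19 for Dlx1 and -0.18 and -0.23 for Dlx2, so the sign of Dlx1 depends on the scaling. Dlx1 also lost its call in the first contrast without Bax null replicate 1 (-0.16), the library that is labelled Bax null Atoh7 null replicate 1 (-0.31) or either Bax het Atoh7 null library (-0.44 and -0.45), and with the shared barcodes left out (-0.43, adjusted p = 0.0525). Dlx2 lost it without Bax null replicate 1 in both contrasts (-0.54 and -0.51) and, in the second, without Bax het Atoh7 null replicate 1 (-0.63). Marker sums in these cells also differed between Bax null and the other 4 libraries. Neurogenic markers summed to 3396 and 2994 CPM against 5794 to 6968, ganglion markers to 328 and 320.0 against 676 to 870.1, and horizontal markers to 177 and 148 against 307 to 367. Cone markers summed to 238 and 200.4 against 341 to 419.6, and markers from outside the neural retina to 287 and 244 against 10.9 to 136. The part of these in the result was not tested.

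In horizontal-labelled cells Dlx1 fell by 0.89 (adjusted p = 0.00189) and 1.002 (adjusted p = 6.56e-04) and Dlx2 by 1.18 (adjusted p = 0.00735) and 1.63 (adjusted p = 7.42e-04), with 15.7% and 15.8% of 8960 genes called lower. With total-count scaling the first contrast lost its calls (-0.36 for Dlx1 and -0.65 for Dlx2) and the second did not (-0.56 and -1.19), where 5.9% and 4.98% of genes were called lower. Without Bax null replicate 1 the first contrast also lost both calls (-0.62 and -0.50). This type mixes amacrine-marked and horizontal-marked clusters with unequal Dlx levels, and the share of each was not separated from the level in this test. Horizontal markers summed to 1217 and 1196 CPM in Bax null against 1699 to 2080.2 in the other 4 libraries, amacrine markers to 1045 and 1062 against 1204 to 1628, cone markers to 196 and 229.98 against 64.7 to 117, and markers from outside the neural retina to 709 and 552 against 337 to 438. The part of these was not tested.

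Progenitors did not follow the other types. Dlx2 rose by 0.62 (SE 0.23, adjusted p = 0.0427) in Bax het Atoh7 null set against Bax null, where 26.6% of genes were called higher (26.8% in the first contrast), and the other 3 values of Dlx1 and Dlx2 in these contrasts (0.30, 0.47 and 0.09) were not called. The Dlx2 call held in 10 of 16 alternatives, with values of 0.44 to 1.16 and adjusted p up to 0.2599. With total-count scaling all 4 were called higher, at 0.93 and 1.004 for Dlx1 and 0.72 and 1.16 for Dlx2, where 66.5% and 60.4% of genes were. Levels there were 1.03 to 3.65 CPM, and in droplets a low level in a type can also come from free RNA of other cells, which was not tested. Markers of other types in progenitors moved with the groups too. Neurogenic markers summed to 422 and 403 CPM in Bax null against 694 to 752 elsewhere, ganglion markers to 88.7 and 80.9 against 122 to 147, and horizontal markers to 20.1 and 17.6 against 46.4 to 57.5. Markers from outside the neural retina summed to 298 and 259.998 against 11.5 to 138, and the part of all these was not tested. In cones Dlx1 failed the count filter and Dlx2 was not called in any contrast, with 28.1%, 27.5% and 1.46% of genes called. Over all cells together, Dlx1 fell by 1.01 and 0.92 and Dlx2 by 1.13 and 0.98, with 28.3% and 27.4% of genes called lower, and with total-count scaling these were -0.40, -0.42, -0.51 and -0.48 with none called.

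Between the Atoh7 null groups, which differ in the label for Bax, neither gene was called in any type. In ganglion cells the differences between these groups (libraries labelled Bax null minus those labelled Bax het) were -0.02 (SE 0.14, adjusted p = 0.984) for Dlx1 and -0.40 (SE 0.20, adjusted p = 0.425) for Dlx2. In neurogenic cells they were -0.13 (SE 0.17) and -0.03 (SE 0.19). Of all genes, 2.34% were called here in ganglion cells, 1.77% in neurogenic cells, 1.61% in horizontal-labelled cells, 2.01% in progenitors and 1.64% over all cells. With 2 libraries a group, a p that misses the threshold does not show that the groups were alike.

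A comparison that cancels any shift common to a library gave the same directions. Each type was set against progenitors of its own library and that difference was compared between groups. In ganglion cells Dlx1 changed by -1.33 and -1.48 and Dlx2 by -1.39 and -1.51, all called, with 7.53% and 7.81% of 13670 genes called lower. In neurogenic cells Dlx2 changed by -0.88 and -1.36, both called, and Dlx1 by -0.76 (adjusted p = 0.0630) and -0.79 (adjusted p = 0.0433), with 3.25% and 4.13% of 13371 genes called lower. In horizontal-labelled cells Dlx1 changed by -1.14 and -1.45, both called, and Dlx2 was called in the second contrast only (-2.22), with 1.39% and 1.47% of 13064 genes called lower. The values combine a lower level in the neuronal type with a higher level in progenitors of the Atoh7 null libraries.

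**Figure D3:**
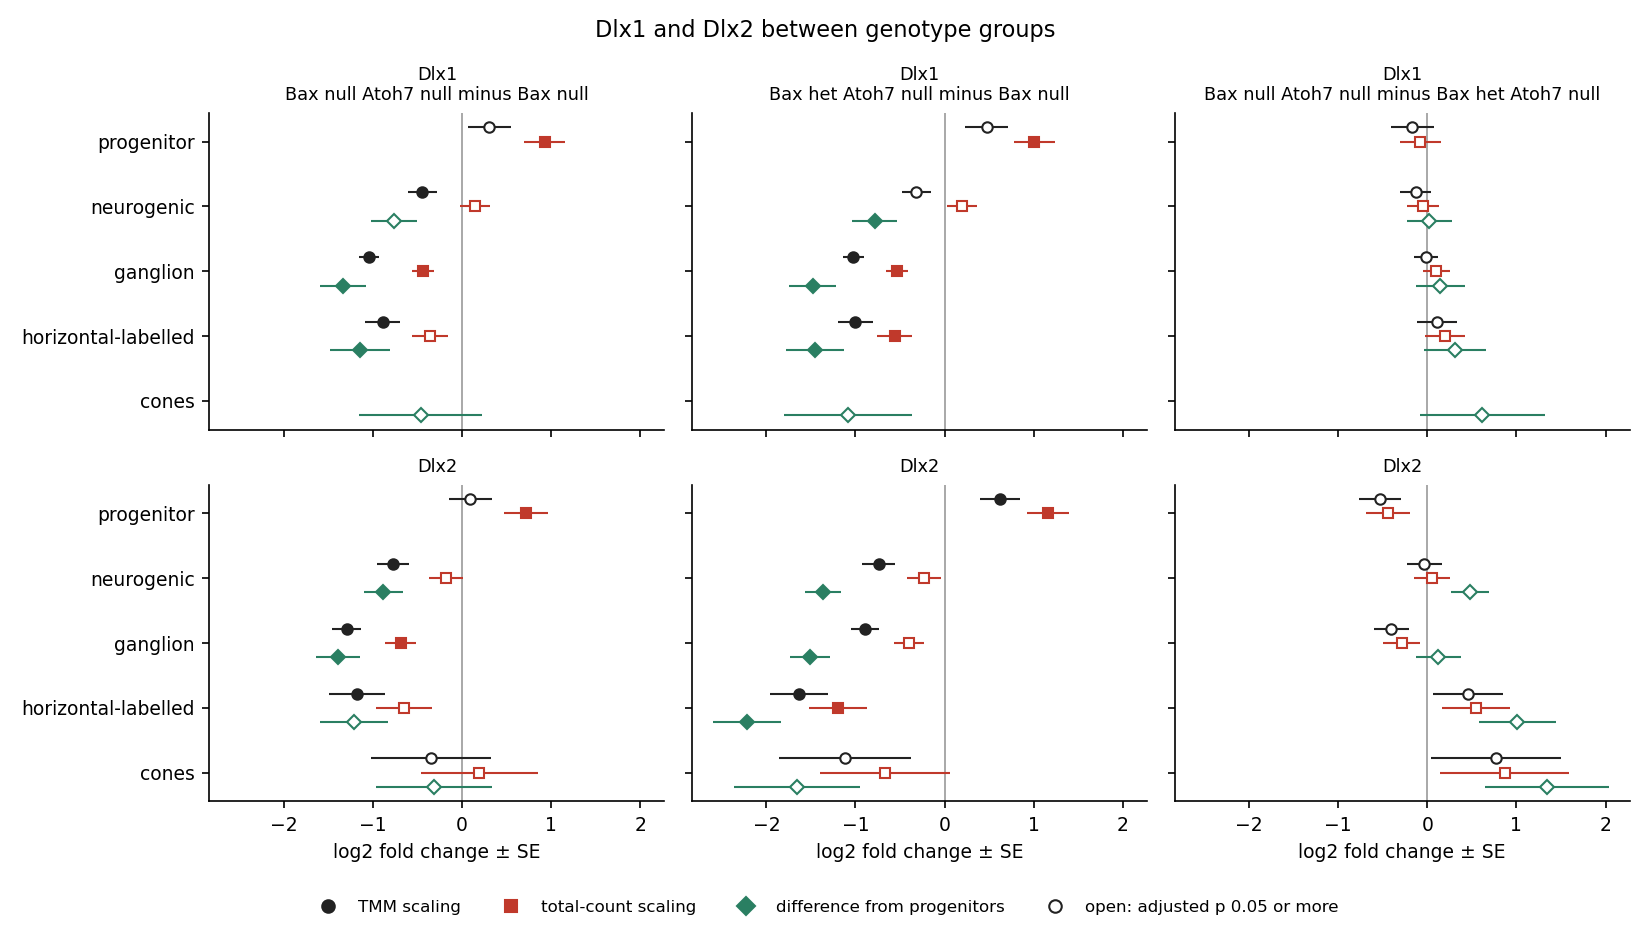
Log2 fold changes with standard errors for Dlx1 (top) and Dlx2 (bottom) in 3 contrasts and 5 cell types, under TMM scaling (black circles), total-count scaling (red squares) and as the difference from progenitors of the same library (green diamonds). Filled symbols have an adjusted p under 0.05. Ganglion cells lie below 0 in both contrasts with Bax null under every scaling, neurogenic Dlx1 changes sign between scalings, and nothing is filled in the contrast between the Atoh7 null groups.

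At equal depth, the share of ganglion cells with a Dlx1 or Dlx2 UMI gave the same order. With each cell thinned to 1500 UMIs, the share was 20.9% and 18.6% in Bax null, then 12.02% and 12.2% in Bax null Atoh7 null, and 13.9% and 11.97% in Bax het Atoh7 null. Thinning left out 23 and 23, 313 and 312, and 43 and 62 shallower ganglion cells in these libraries. Without thinning the shares were 44.4% and 44.1% in Bax null and 15.4% to 22.2% in the others, a gap that includes the depth difference. In neurogenic cells the thinned shares were 17.7% and 14.2%, 11.7% and 15.2%, and 13.2% and 15.2%, which overlap. In progenitors the thinned share was 0.284% to 0.959% and in the ganglion cells it was well above that in every library. In the sums per type, fewer cells with the gene and fewer molecules per cell cannot be told apart.

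Genes that work with Dlx genes, or that mark the fates around them, were counted in the same contrasts from lists by role. Of the forebrain partners reported here (Lhx6, Lhx8, Sp8, Sp9, Meis1 and Meis2), only Sp8, Meis1 and Meis2 passed the count filter in these types. Sp8 fell in neurogenic cells, by 1.49 and 1.55 (log2) in Bax null Atoh7 null and Bax het Atoh7 null against Bax null. Dlx2 was also called lower there in both contrasts, and Dlx1 only in the first. Of all genes, 23.8% were called lower in each. In ganglion cells Sp8 fell by 0.67 (adjusted p = 0.00449) in the first contrast and was at -0.32 (adjusted p = 0.120) in the second. Meis1 and Meis2 rose in ganglion cells, by 0.47 and 0.65 in the first contrast and by 0.53 and 0.85 in the second.

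Of the GABA genes, Gad1 (a synthetic enzyme) failed the filter throughout. Gad2, the other synthetic enzyme, fell in ganglion cells by 1.08 and 1.24 and rose in horizontal-labelled cells by 0.75 and 0.63. Of all genes in ganglion cells, 26.5% and 25% were called lower. In progenitors Gad2 was called higher in both contrasts, where 26.8% and 26.6% of genes were. As the difference from progenitors of the same library, the horizontal-labelled change of Gad2 had the opposite sign. In horizontal-labelled cells 13.5% and 14.4% of all genes were called higher. The vesicular transporter Slc32a1 rose in neurogenic cells by 2.92 and 2.16, where 23.5% and 23.4% of all genes were called higher. These GABA genes therefore moved in both directions.

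Ganglion cell genes (Pou4f1, Pou4f2, Pou4f3, Isl1, Ntrk2 and Rbpms) were lower in 3 and higher in 1 (Ntrk2) of 5 tested in ganglion cells in each contrast. Of all genes in ganglion cells, 26.5% and 25% were called lower, and 26.2% and 25% higher. Pou4f2 itself fell by 1.25 and 1.14 there, from 82.6 and 79.1 CPM in Bax null, against 49.4 and 54.1 in Bax null Atoh7 null and 34.5 and 64.3 in Bax het Atoh7 null. Isl1 fell by 1.09 and 1.07 and the RNA-binding protein gene Rbpms by 2.17 and 1.88. In neurogenic cells 5 were tested, and 3 were called lower and 2 (Pou4f1 and Ntrk2) higher in each contrast. Of all genes there, 23.8% were called lower in each contrast, and 23.5% and 23.4% higher. Pou4f2 fell by 2.23 and 2.56 in these cells, Isl1 by 2.57 and 2.40 and Rbpms by 1.31 and 1.44. Dlx1 and Dlx2 thus changed by less than Pou4f2 and Isl1 in neurogenic cells, although the difference between genes was not tested.

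Among bHLH factors the proneural gene Neurog2 rose in ganglion cells by 3.04 and 3.08 and in neurogenic cells by 1.15 and 1.21. Of the photoreceptor factors, Otx2 rose in ganglion cells by 1.31 and 0.69, Crx rose there in the first contrast only, and both fell in horizontal-labelled cells. In the contrast between the Atoh7 null groups no listed gene was called in any type.

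Co-detection with Pou4f2 was examined cell by cell. In neurogenic cells a Pou4f2 UMI was more often found in cells with a Dlx1 UMI than in cells without, in 6 of 6 libraries, but the exact test did not pass the threshold after adjustment. Ganglion cells showed this less evenly, and Dlx2 showed no constant direction there. The expected number below is what chance pairing of the detected cells within a library gives.

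At 1500 UMIs per cell, neurogenic cells with a Pou4f2 UMI numbered 13 and 22 in Bax null, then 5 and 9 in Bax null Atoh7 null, and 5 and 5 in Bax het Atoh7 null. Of cells with a Dlx1 UMI, 3.68% and 3% had a Pou4f2 UMI in Bax null, then 0.813% and 3.19% in Bax null Atoh7 null, and 0.847% and 0.662% in Bax het Atoh7 null. Of cells without one, 0.543% and 1.24%, 0.223% and 0.501%, and 0.252% and 0.218% did. These shares rest on 1 to 5 double-positive cells per library, and in no library do the Wilson intervals of positive and negative cells separate except in Bax null replicate 1 and Bax null Atoh7 null replicate 2.

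The mean log2 odds ratio of Dlx1 with Pou4f2 in neurogenic cells was 2.27 ± 0.51 (SD, n = 6 libraries, above 0 in 6 of 6, exact sign-flip permutation test at the smallest p it can give, adjusted p = 0.0750). For Dlx2 it was 0.88 ± 0.81 (5 of 6, exact permutation p = 0.0625, adjusted p = 0.0750), and for either gene 1.59 ± 0.43 (6 of 6, exact permutation adjusted p = 0.0750). Adding 0.5 to each count raises the ratio where fewer than 1 double-positive cell is expected, as in 2 libraries where none was seen for Dlx2. In those 2 libraries the ratio still came out at 0.17 and 0.46. Dlx1 is affected too, with 0.321 to 1.34 such cells expected per library, as is either gene, with 0.583 to 3.13. The sign-flip test takes ratios without association as centred on 0, which need not hold at such counts. Counted directly, 14 neurogenic cells had both Dlx1 and Pou4f2 where 4.14 were expected, and 8 had both Dlx2 and Pou4f2 where 5.51 were expected. The observed number was above the expected one in 6 of 6 libraries for Dlx1 and in 3 of 6 for Dlx2, so the 5 of 6 odds ratios above 0 for Dlx2 overstate its constancy. At 2500 UMIs per cell, which leaves fewer cells, the Dlx1 ratio was 1.74 ± 1.51 and that of either gene 1.01 ± 1.31, each above 0 in 5 of 6 libraries (exact permutation test, adjusted p = 0.141).

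At full depth, with the expected number formed within deciles of the cells' UMI totals, 105 neurogenic cells held Pou4f2 and either Dlx gene where 54.1 were expected. The observed and expected numbers were 39 and 23.5, and 50 and 23.0, in Bax null, 2 and 1.07, and 6 and 2.80, in Bax null Atoh7 null, and 4 and 1.72, and 4 and 1.93, in Bax het Atoh7 null. The observed number was above the expected one in 6 of 6 libraries. Compared within the authors' clusters, the log2 odds ratio was 1.33 for Dlx1 and 0.68 for either gene, each above 0 in 6 of 6 libraries. For Dlx2 only 4 libraries gave a value within clusters, with a mean of -0.02 and 3 of 4 above 0.

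In ganglion cells Pou4f2 was far more common, and the excess was smaller. Of Dlx1-positive cells, 12.8% and 12.8% had a Pou4f2 UMI in Bax null against 10.0% and 10.9% of the others. In Bax null Atoh7 null the shares were 16.4% and 18.5% against 6.34% and 6.57%, and in Bax het Atoh7 null 5.88% and 7.89% against 3.49% and 9.69%. The widest gap was in the Bax null Atoh7 null libraries, whose Wilson intervals did not overlap, and 1 of the 6 libraries went the other way. The mean log2 odds ratio was 0.79 ± 0.77 for Dlx1 (5 of 6, exact permutation p = 0.0625, adjusted p = 0.0750) and 0.14 ± 0.55 for Dlx2 (3 of 6, exact permutation p = 0.875, adjusted p = 0.875), and the observed number for Dlx2 was above the expected one in 2 of 6. Within the authors' clusters the ratio of Dlx1 was 0.96, above 0 in 6 of 6. Together 116 ganglion cells held Pou4f2 and either Dlx gene where 99.1 were expected, and at full depth within deciles 625 where 594 were expected.

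**Figure D4:**
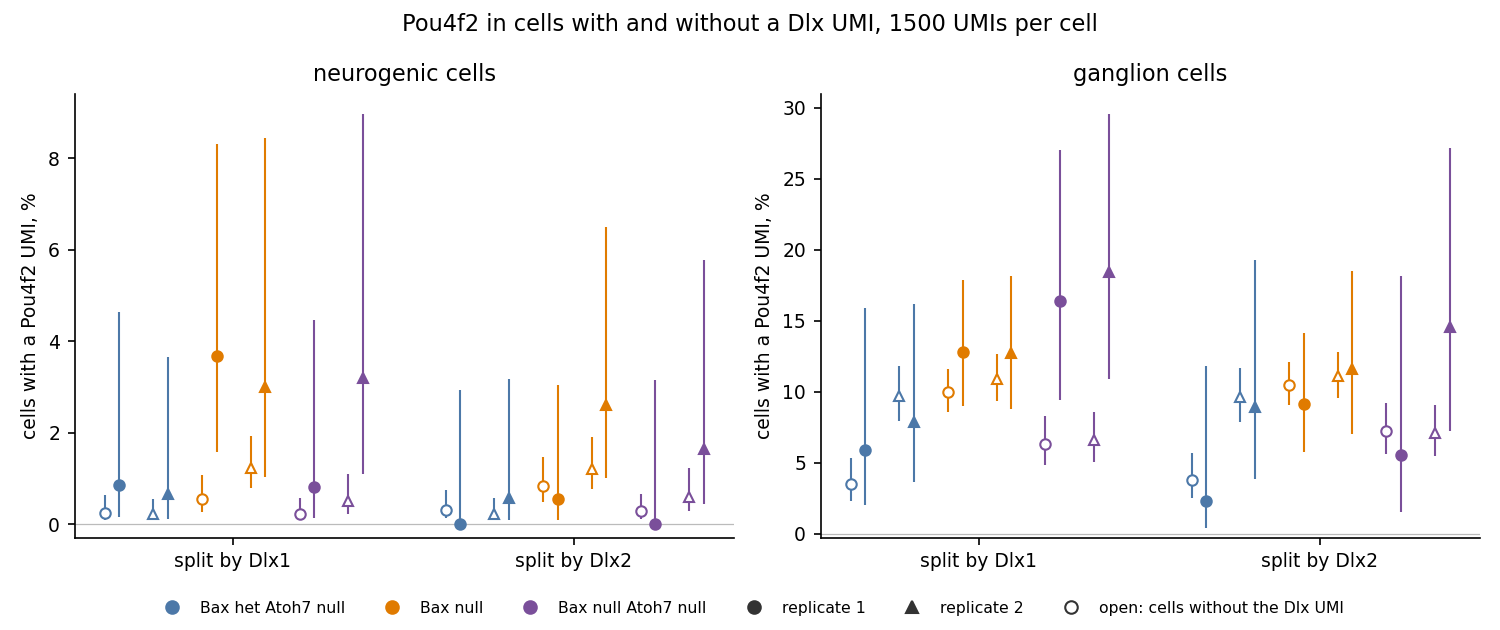
Share of neurogenic cells (left) and ganglion cells (right) with a Pou4f2 UMI, in percent, among cells with (filled) and without (open) a UMI of Dlx1 (left in each panel) or of Dlx2 (right), at 1500 UMIs per cell. Each pair of points is a library and bars are Wilson 95% intervals, which cover counting error only. For Dlx1 the filled points lie above the open ones in 6 of 6 neurogenic and 5 of 6 ganglion libraries.

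From the side of Pou4f2, 22.7% and 18.6% of Pou4f2-positive ganglion cells in Bax null had a Dlx1 or Dlx2 UMI, 21.7% and 24.2% in Bax null Atoh7 null, and 17.4% and 11.6% in Bax het Atoh7 null. Most Pou4f2-positive cells thus had no Dlx UMI at this depth, which does not show that they lacked the transcript. Without thinning the shares were 42.5% and 46.0%, 24.1% and 23.3%, and 36.8% and 16.5%. Dlx5 and Dlx6 had too few UMIs for any of these ratios.

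Dlx1 and Dlx2 were found in the same cells more often than chance pairing gives. At 1500 UMIs, 135 neurogenic cells held both where 63.2 were expected, and 104 ganglion cells where 53.1 were expected. Among neurogenic cells with a Dlx1 UMI, 14.6% to 25% also had a Dlx2 UMI, against 5.59% to 10.0% of the others. The mean log2 odds ratio was 1.45 ± 0.25 in neurogenic cells (6 of 6 libraries above 0, exact permutation test) and 1.32 ± 0.90 in ganglion cells (5 of 6, exact permutation p = 0.0625), with adjusted p = 0.0625 for both, and 1.73 and 1.63 at full depth (adjusted p at the smallest value the exact test can give for both). The exception was the library that is labelled Bax null Atoh7 null replicate 1, in which 2 of 67 Dlx1-positive ganglion cells had a Dlx2 UMI (log2 odds ratio -0.29). Most cells with a UMI of 1 gene showed none of the other, which at this depth does not show its absence.

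Ganglion cells with a Dlx1 or Dlx2 UMI had fewer transcripts of mature ganglion cell genes and more of neurogenic genes than ganglion cells without. This comparison paired positive and negative cells of the same library at 1500 UMIs per cell and was chosen after the cluster pattern was seen. Negative cells include cells whose Dlx molecules were missed. Of 6547 genes tested, 5.38% were called higher and 5.38% lower, 704 in all, and 446 or 467 were called without Bax null replicate 1 or 2.

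Of 10 ganglion markers, 8 fell and none rose. Among them, Sncg fell by 2.28 (log2, from 1088 to 226 CPM on average over 6 libraries, lower in 6 of 6), the neurofilament gene Nefl by 1.54, Rbpms by 1.38, Gap43 by 1.11, Ebf3 by 1.09, Elavl4 by 1.01 and the microtubule regulator Stmn2 by 0.33. The paralog of Pou4f2, Pou4f1, fell by 1.23 (161 to 73.6 CPM, 6 of 6). The exceptions were Isl1 at -0.15 (adjusted p = 0.229) and Pou4f2 at 0.41 (90.2 against 65.4 CPM, higher in 5 of 6, adjusted p = 0.102). Dlx-positive ganglion cells thus differed from the rest in the later ganglion genes, and neither of the early factors Isl1 and Pou4f2 passed the test.

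All 5 tested neurogenic markers rose in the positive ganglion cells, namely Gadd45a (1.08), Btg2 (0.82), Neurog2 (0.71), Hes6 (0.70) and Dll3 (0.67). Of 7 progenitor markers 3 rose, Sox2 and Ccnd1 among them. Sp8 rose by 1.67 (43.4 to 139 CPM, 6 of 6), Prox1, a homeobox gene of horizontal cells, by 0.68 and Meis1 by 0.52. Prox1 was called in 6 of 9 alternatives, Dll3 in 8 of 9 and Ccnd1 in 8 of 9 (lowest value 0.15). Among genes of at least 20 CPM in either set of cells, the highest rises were in the ephrin receptor gene Epha4 (1.73), Sp8, Rhbdl3 (1.44) and the Notch target Hes5 (1.34). Strong falls outside the lists were in the receptor tyrosine kinase gene Ret (-3.04), Crabp1 (-2.44), the neuritin gene Nrn1 (-2.14) and the somatostatin gene Sst (-2.08).

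In neurogenic cells 1.13% of 7726 genes were called higher in positive cells and 1.06% lower. Sp8 again rose, by 1.501 (12.6 to 36.7 CPM, 6 of 6 libraries), as did Edil3 (1.46), Isl1 (0.96), the neuroendocrine factor gene Insm2 (0.89), Igfbpl1 (0.82), Prox1 (0.65), Stmn2 (0.50), Gadd45a (0.40) and Onecut2 (0.31). Prdm1, a factor of photoreceptor fate, fell by 1.06, Otx2 by 0.76 (299 to 174 CPM, 6 of 6) and Meis2 by 0.67. Of 7 progenitor markers 4 fell (Sfrp2 by 0.81, Fgf15 by 0.57, Hes1 by 0.53 and Ccnd1 by 0.37), and of 8 neurogenic markers 4 fell, Dll3, Neurog2 and Hes6 among them, and Gadd45a rose. Isl1 was called in 6 of 8 alternatives, Prox1 and Onecut2 in 6 of 9, Hes6 in 4 of 9 and Meis2 in 2 of 9.

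**Figure D5:**
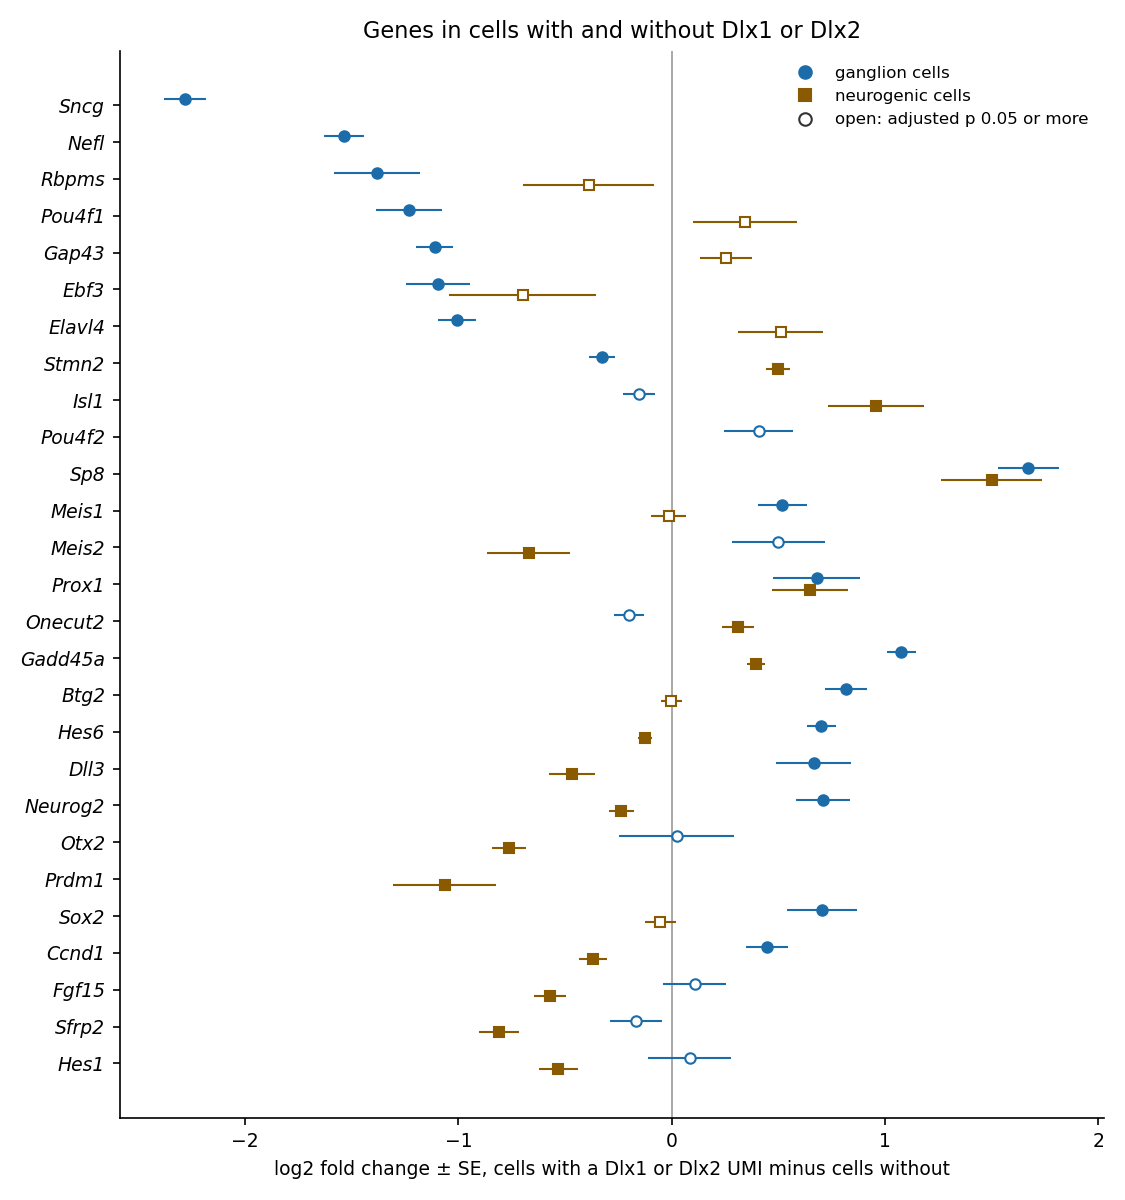
Log2 fold change with standard error of selected listed markers and role genes between cells with and without a Dlx1 or Dlx2 UMI, in ganglion cells (blue circles) and neurogenic cells (brown squares), paired within 6 libraries at 1500 UMIs per cell. Filled symbols have an adjusted p under 0.05. In ganglion cells the mature markers lie at -0.33 to -2.28 and the neurogenic markers above 0, and in neurogenic cells Prdm1 and Otx2 lie below 0, while Sp8 lies above 0 in both.

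The genes most like each member were sought over 30 sums (5 types by 6 libraries), each centred on its library, among 9391 genes. For Dlx1 they included Rnf165 (Pearson r 0.96), Chn2 (0.96), Slc24a5 (0.95) and Ppp1r11 (0.94). For Dlx2 they were Miat, a long noncoding RNA (0.96), Myef2 (0.93), Dlx1 (0.92), Chst15 (0.92) and Cycs (0.92). The sums share libraries and the authors' types, so the correlations are a description without p. Dlx5 and Dlx6 were under the 10 CPM needed in any type and had no such list.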

How the data were processed

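Single-cell RNA-seq of 6 libraries (3 genotype groups of 2) was analysed. The authors deposited raw UMI counts per gene and cell with a table of total counts, clusters and cell types, and the matrix sums equalled the deposited totals in all 67050 cells. Cell Ranger 1.2.1 and mm10 are named in the submitters' processing notes, and the filters on cells are not given in the sources used here. Per-cell values of 2 further libraries (26078 cells, 28.0%) in no sample of the series were not used.

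Counts summed per library and type entered quasi-likelihood fits of edgeR 4.0.16 under R 4.3.3 (filterByExpr, TMM scaling, group as the only term, 6 libraries in 1 fit, Benjamini-Hochberg over all genes tested). An adjusted p under 0.05 is a call, and the SE is the log2 fold change divided by the square root of F. Library totals ran from 22463515 to 66594431 UMIs. The Dlx-positive comparison used library as a block. Co-detection used cells thinned to 1500 UMIs, 0.5 added to each count and an exact two-sided sign-flip test over libraries (64 patterns), adjusted over 6 tests for Pou4f2 and 2 for the Dlx pair. Positive and negative cells, cluster descriptions, the shares of genes without overlap and total-count scaling were added after the data were seen. Doublets were kept, and left out (the top 8% of Scrublet scores per library) as an alternative. The edgeR scripts were tested on simulated data. Floors and intervals cover counting error only. The genes, lists and named-gene rule (the members, fixed role lists, markers and the 5 genes most like each member) were chosen with earlier results of these data known. Genes with the most extreme fold changes were named after their values were seen. Some genes of these lists are not reported here. Sequences came from RefSeq tables, in which 2 of the 4 members were matched.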

Additional observations from a re-analysis of the deposited data

Results flagged for a closer look

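The difference of Dlx1 and Dlx2 between neuronal types and progenitors of the same library differed between genotype groups in 10 tests of that difference itself (edgeR with library as a block, adjusted p under 0.05), all with n = 2 libraries per group. Against Bax null, the Bax null Atoh7 null libraries gave log2 values of -1.33 for Dlx1 and -1.39 for Dlx2 in ganglion cells, -0.88 for Dlx2 in neurogenic cells and -1.14 for Dlx1 in horizontal-labelled cells. Bax het Atoh7 null against Bax null gave -1.48 for Dlx1 and -1.51 for Dlx2 in ganglion cells, -0.79 and -1.36 in neurogenic cells, and -1.45 and -2.22 in horizontal-labelled cells. Of all genes, 7.53% and 7.81% were called lower by these tests in ganglion cells, 3.25% and 4.13% in neurogenic cells, and 1.39% and 1.47% in horizontal-labelled cells. Dlx1 and Dlx2 levels in progenitors, against which these are set, were 1.03 to 3.65 CPM. Depth per cell moved with the groups (medians of 5660.5 and 6804 UMIs in Bax null against 1634 to 2632), and its part in these values was not tested.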

How the results depend on the processing

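Values are log2 fold changes or log2 odds ratios. Of the Dlx1 and Dlx2 results between groups, 478 alternative values kept direction and call, 29 lost the call, 6 gained it and 26 changed sign, most of these near 0; the causes were not tested. In Bax null Atoh7 null minus Bax null, neurogenic Dlx1 was -0.45 with DESeq2, -0.44 with only the 4 libraries compared, -0.43 with shared barcodes left out, 0.15 with total-count scaling and -0.76 as the within-library difference, none called. Total-count scaling gave, in the same contrast, -0.18 for neurogenic Dlx2 and 0.20 for Dlx2 in cones; in Bax het Atoh7 null minus Bax null, 0.19 and -0.23 for neurogenic Dlx1 and Dlx2 and -0.40 for ganglion Dlx2; and between the Atoh7 null groups, 0.012 for Dlx1 in all cells, 0.054 for neurogenic Dlx2 and 0.10 for ganglion Dlx1. With no filter neurogenic Dlx1 was called at -0.31 in Bax het Atoh7 null minus Bax null, and at -0.79 as the within-library difference. Between the Atoh7 null groups that difference was 0.025 and 0.48 for neurogenic Dlx1 and Dlx2 and 0.15 and 0.12 in ganglion cells, and ganglion Dlx1 was 0.012 without shared barcodes. The same difference turned the sign of neurogenic Pou4f1 (-0.37 and -0.30), Olig2 (-1.11 and -1.29) and Dlx3 (-1.38), ganglion Ntrk2 (-0.23) and Pou4f2 (0.29), and horizontal-labelled Gad2 (-0.29 and -0.069). Co-detection of Dlx2 with Pou4f2 was -0.019 within the authors' clusters (neurogenic, 4 libraries) and -0.085 at 2500 UMIs (ganglion); unthinned, Dlx1 with Dlx2 reached 1.73 and 1.63 and passed. Unthinned Dlx-positive cells gave 2100 called genes in ganglion and 504 in neurogenic cells, and Hes6 at 0.0014. Leaving out each library in turn, neurogenic Dlx1 ranged from -0.69 to -0.16 and Dlx2 from -1.09 to -0.51 in Bax null Atoh7 null minus Bax null, and from -0.56 to -0.039 and -0.95 to -0.51 in Bax het Atoh7 null minus Bax null. Progenitor Dlx2 ranged from -0.093 to 0.31 in the first of these, and Dlx2 in cones from -1.16 to 2.35 and from -1.93 to 1.58. Between the Atoh7 null groups, none called, Dlx1 ranged from -0.26 to 0.10 and Dlx2 from -0.46 to 0.14 in all cells, progenitor Dlx1 from -0.43 to 0.010, neurogenic Dlx1 from -0.28 to 0.00056 and Dlx2 from -0.35 to 0.23, ganglion Dlx1 from -0.078 to 0.049 and horizontal-labelled Dlx1 from -0.092 to 0.40. Ganglion Dlx2 with Pou4f2 ranged from -0.082 to 0.21, and genes called in Dlx-positive ganglion cells from 446 to 725. Libraries share only a replicate number (correlations of deviations 0.015, 0.39 and -0.17), and the replicate block changed no call of Dlx1 or Dlx2 (ganglion -1.04 and -1.29 in the first contrast, 5673 genes called against 5580). DESeq2 called 3974 genes there and the within-library difference 2144. Low counts limit Dlx5, Dlx6, progenitors, cones and co-detection most.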

Other observations

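Dlx1as, the antisense gene that overlaps Dlx1, had 21 and 31 UMIs in the Bax null libraries, 3 and 2 in Bax null Atoh7 null, and 3 and 5 in Bax het Atoh7 null. It was the only noncoding Dlx gene detected, and most of its UMIs lay in neurogenic cells (33 of 65 over the 6 libraries) and ganglion cells (19). Because strand use in the counting is not given in the sources used here, part of these UMIs may belong to Dlx1.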
